A study of Mus musculus with 9 samples.

Results

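The mouse genome holds 56 protein-coding genes in RefSeq (GRCm38.p6) whose symbols begin with Eif and a digit from 1 to 6. They were taken by symbol alone out of 21887 protein-coding genes. The family was picked with earlier results of these data known. Chromatin came from the thymus of C57BL/6J mice with MYCN-driven T cell lymphoma, a tumour in which the N-MYC transcription factor is the stated driver. ChIPmentation, a chromatin immunoprecipitation in which a transposase adds the sequencing adapters, was carried out with 7 antibodies and 1 library each: EZH2, SUZ12, H3K27me3, N-MYC, p300, H3K27ac and H3K4me3. Another 2 libraries were inputs and were not analysed here. The labels give the same strain, tissue and tumour for all libraries, with no non-tumour tissue. The animals' age, the promoter that drives MYCN and the animal behind each immunoprecipitation are not given in the sources used here.

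Translation initiation factors bring the ribosome, the initiator tRNA and the start codon of a messenger RNA together. The main parts are the cap-binding eIF4F complex, the ternary complex around eIF2 and the scaffold eIF3. MYC proteins are known for binding the promoters of genes of ribosome production and protein synthesis, often at the E-box, the palindrome CACGTG. EZH2 is the methyltransferase of Polycomb repressive complex 2, which it forms with SUZ12 and which places H3K27me3 on silent genes. H3K4me3 marks active promoters, while p300 is an acetyltransferase that places H3K27ac on active promoters and enhancers.

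Each antibody had 1 deposited list of peaks, from 9798 peaks for N-MYC to 123056 for H3K27me3. Peaks were read in 2 ways: in the start window, 1 kb either side of each listed start, and over the whole H3K4me3 peak that reached this window, or in the window where there was no such peak. Unless the start window is named, values are from the second reading. The value of a peak is its fold enrichment over background, as the authors deposited it, and where a gene had several peaks of a list the strongest was taken. Of the marker genes of T cells, 11 of 11 carried both H3K4me3 and H3K27ac in the start window, against 0 of 6 for myeloid cells, 0 of 5 for fibroblasts and endothelium, 1 of 5 for thymic epithelium and 2 of 6 for B cells. All 3 red cell markers also carried both marks, and the part of other cells in the values below was not tested. With 1 library per antibody no test between conditions could be made, and the 95% Wilson intervals of shares cover counting error over genes only.

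The promoters behind the 3 highest N-MYC values came from the helicase group: Eif4h, which encodes a cofactor of the eIF4A helicase, and Eif4a1 and Eif4a2, which encode the helicase itself. The 250 bases upstream of their starts are shown with those of Eif4a3, whose protein is the helicase of the exon junction complex, and Eif4a3l1, a copy of it that had no peak in any of the 7 lists. Sequences are from RefSeq (GRCm38.p6), 5′ to 3′ along transcription, at chr5:134639410-134639659 (minus strand), chr11:69672424-69672673 (minus), chr16:23107218-23107467 (plus), chr11:119300044-119300293 (minus) and chr6:136327289-136327538 (plus) in that order. Capitals mark CACGTG and the related E-box forms CACGCG and CATGTG, on either strand.
Eif4h: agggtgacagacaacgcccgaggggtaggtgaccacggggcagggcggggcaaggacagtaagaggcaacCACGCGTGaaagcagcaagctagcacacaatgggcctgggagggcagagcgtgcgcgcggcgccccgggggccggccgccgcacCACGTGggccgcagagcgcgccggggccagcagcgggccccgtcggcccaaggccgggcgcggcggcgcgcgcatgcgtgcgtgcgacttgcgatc
Eif4a1: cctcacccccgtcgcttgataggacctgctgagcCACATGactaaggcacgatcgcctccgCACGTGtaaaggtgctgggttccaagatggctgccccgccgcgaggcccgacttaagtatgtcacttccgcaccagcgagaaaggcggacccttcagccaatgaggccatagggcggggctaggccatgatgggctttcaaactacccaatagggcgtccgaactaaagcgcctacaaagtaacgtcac
Eif4a2: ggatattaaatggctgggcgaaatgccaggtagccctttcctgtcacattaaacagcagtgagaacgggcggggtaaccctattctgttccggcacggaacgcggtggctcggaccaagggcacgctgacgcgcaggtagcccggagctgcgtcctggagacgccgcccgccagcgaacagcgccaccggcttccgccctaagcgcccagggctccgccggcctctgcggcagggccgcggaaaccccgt
Eif4a3: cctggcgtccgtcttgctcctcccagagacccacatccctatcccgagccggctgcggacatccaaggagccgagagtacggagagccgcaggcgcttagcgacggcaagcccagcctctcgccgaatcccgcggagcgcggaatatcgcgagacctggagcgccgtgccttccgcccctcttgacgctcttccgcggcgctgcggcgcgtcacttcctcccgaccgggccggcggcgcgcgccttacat
Eif4a3l1: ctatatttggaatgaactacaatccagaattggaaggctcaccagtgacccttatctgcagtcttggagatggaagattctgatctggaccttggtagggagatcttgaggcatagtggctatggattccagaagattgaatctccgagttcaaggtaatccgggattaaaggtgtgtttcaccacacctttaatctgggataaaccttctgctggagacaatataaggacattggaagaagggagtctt
Eif4h and Eif4a1 held 1 CACGTG each in these windows, and the other three held none. The GC content was 70% with 36 CG pairs upstream of Eif4a3 and 43.6% with 2 CG pairs upstream of Eif4a3l1.

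Further CACGTG sites lay close to an N-MYC summit at Eif5a2, Eif3a, Eif4g1 and Eif1b. Their sites are shown as 30 bases around the motif, which is in capitals, beside those of Eif3f, which had no N-MYC peak, and Eif3k, whose N-MYC peak did not cover the site. They lie at chr3:28781123-28781152 and chr3:28781148-28781177 (plus strand), chr19:60790654-60790683 (minus), chr16:20672730-20672759 (plus), chr9:120492570-120492599 (plus), chr7:108934335-108934364 (plus) and chr7:28981915-28981944 (minus), in the order of the lines.
Eif5a2, first site: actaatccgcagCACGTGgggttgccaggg
Eif5a2, second site: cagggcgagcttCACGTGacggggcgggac
Eif3a: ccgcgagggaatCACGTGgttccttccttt
Eif4g1: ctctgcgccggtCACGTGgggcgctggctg
Eif1b: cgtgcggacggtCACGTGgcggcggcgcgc
Eif3f: caagatatgattCACGTGgtataaatttag
Eif3k: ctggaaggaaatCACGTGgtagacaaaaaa
The N-MYC summit fell 25 and 0 bp from the centres of the 2 sites of Eif5a2, whose windows overlap, and 19, 29 and 46 bp from those of Eif3a, Eif4g1 and Eif1b. The summit lay 3 bp from the CACGTG of Eif4a1 and 5 bp from that of Eif4h. At Eif3k it lay 1468 bp away. Sites not shown lay farther from the summit than those of Eif1b: 98 bp at a second site of Eif4g1, 173 and 825 bp at Eif5a and 303 and 467 bp at Eif4e.

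Most initiation factor genes carried the marks of active promoters together with EZH2 and N-MYC, and few carried SUZ12 or H3K27me3. H3K4me3 was called at 53 of 56 genes (94.6%), against 51% of all protein-coding genes, and H3K27ac at 52 (92.9%), against 51.5%. EZH2 was called at 49 genes (87.5%, interval 76.4 to 93.8%), against 46.2% of all genes. For N-MYC the count was 43 (76.8%, interval 64.2 to 85.9%), against 33.6%, and for p300 it was 46 (82.1%, interval 70.2 to 90.0%), against 39.7%. SUZ12 was called at 2 genes (3.57%), where 13.3% of all genes had it, and H3K27me3 at 5 (8.93%), where 24.8% had it. All 5 of EZH2, N-MYC, p300, H3K27ac and H3K4me3 without SUZ12 or H3K27me3 were found at 39 genes (69.6%, interval 56.7 to 80.1%), against 25.4% of all genes. Of the 49 members with EZH2, 45 (91.8%) had neither SUZ12 nor H3K27me3, against 69.9% of all genes with EZH2. In the start window alone, EZH2 was called at 47 genes, against 45.8% of all, and N-MYC at 42, against 32.9%. SUZ12 was called there at 2 genes, against 13.7%, and H3K27me3 at 6, against 25.8%.

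**Figure D1:**
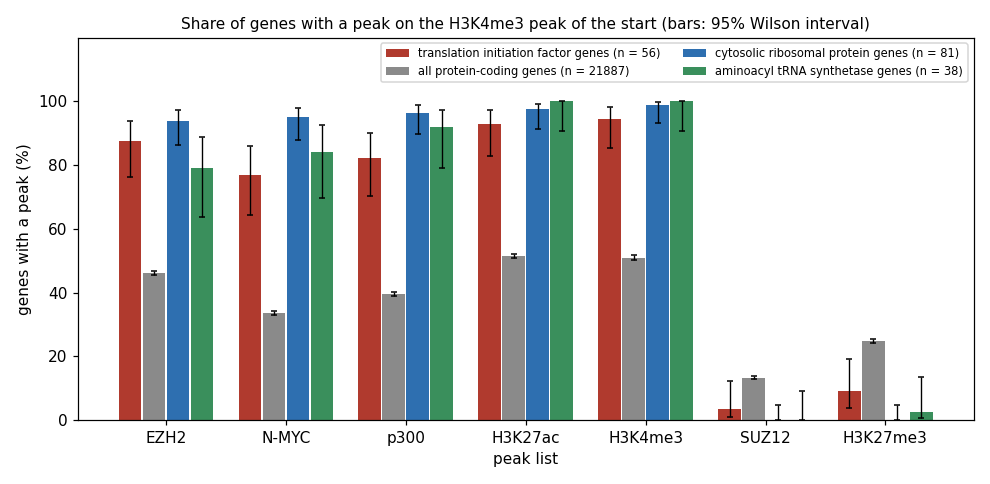
Share of genes with a peak of each list (y axis, %) among the initiation factor genes, all protein-coding genes, cytosolic ribosomal protein genes and aminoacyl tRNA synthetase genes, with 95% Wilson intervals. The initiation factor genes lie above all genes in the 5 lists at the left, with EZH2 at 87.5% against 46.2%, and below them for SUZ12 and H3K27me3.

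Part of this difference went with H3K4me3 itself. Among genes with an H3K4me3 peak, EZH2 was called at 48 of 53 members (90.6%), against 74.7% of 11155 genes. N-MYC was called at 81.1% of these members, against 65.5%, and p300 at 86.8%, against 77.3%. The combination of the 5 lists with no SUZ12 or H3K27me3 was found at 73.6% of them, against 49.9%. When genes were further sorted by the strength of H3K4me3, the shares for EZH2 and p300 came close to those of all genes from 30 upward. With an H3K4me3 fold enrichment from 30 to 40, EZH2 was called at 26 of 27 members (96.3%), against 98.1% of all genes, and p300 at 96.3%, against 96%. N-MYC was called at 24 of these 27 (88.9%, interval 71.9 to 96.1%), against 81.4%. At 40 and above, EZH2 was called at 11 of 11 members, against 100% of all genes, N-MYC at 11 of 11, against 88.9%, and p300 at 11 of 11, against 99%. From 20 to 30, EZH2 was called at 10 of 11 (90.9%, interval 62.3 to 98.4%), against 76.1%, N-MYC at 8 of 11 (72.7%), against 70.8%, and p300 at 9 of 11 (81.8%), against 87.3%. In each of these ranges, from 20 upward, the share of all genes lay inside the members' 95% interval for all 3 lists. Fewer members had weaker H3K4me3. From 10 to 20 there were 3, Eif2s3y, Eif3j2 and Eif4enif1, and 0 of 3 had EZH2, N-MYC or p300 (interval 0 to 56.1% for each). Of all genes in that range 43.0% had EZH2, 51.2% N-MYC and 60.4% p300, the last of which lay outside the members' interval. Under 10 the one member was Eif4e1b, with EZH2 and without N-MYC or p300.

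**Figure D2:**
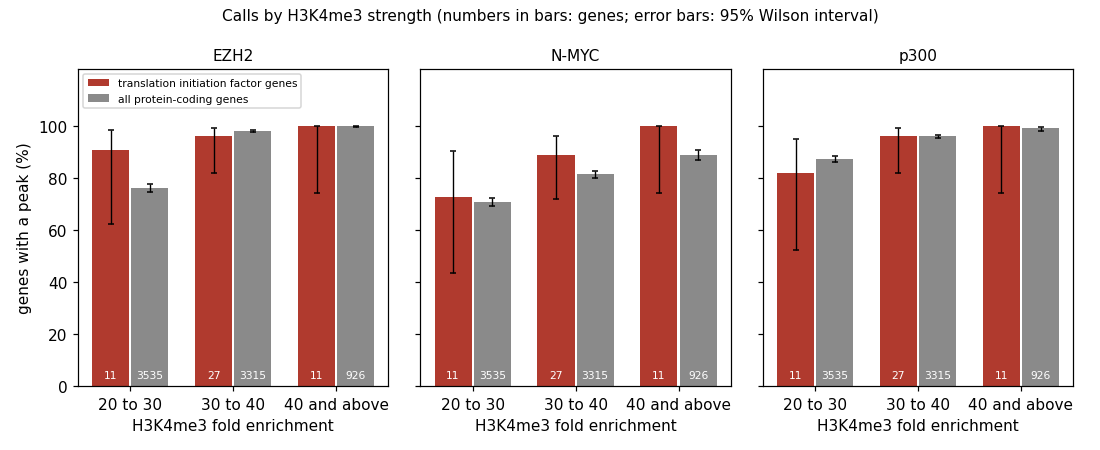
Share of genes with an EZH2, N-MYC or p300 peak (y axis, %) by the fold enrichment of H3K4me3 at the start (x axis), for initiation factor genes and all protein-coding genes, with 95% Wilson intervals. For EZH2 the bars from 30 upward stand at 96.3% and 100% for the members and 98.1% and 100% for all genes.

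For EZH2, N-MYC, p300, H3K27ac and H3K4me3, the median strength of called peaks was higher at initiation factor genes than at all genes with such a peak. The median fold enrichment of EZH2 was 6.73 over 49 members (range 2.83 to 13.6), against 5.85 over all genes. N-MYC had a median of 8.25 over 43 members (3.896 to 18.5), against 6.02. Median p300 was 6.02 against 5.40, median H3K27ac 15.6 against 12.3 and median H3K4me3 34.4 against 26.5. Median SUZ12 was lower, 4.07 over 2 members against 5.75, and median H3K27me3 was 9.54 over 5 members against 9.24. H3K4me3 peaks had a median width of 3154 bp at the members and 2506 bp at all genes. Within the H3K4me3 range from 30 to 40, the N-MYC median was 8.35 at members and 6.25 at all genes, while the EZH2 medians were 6.76 and 6.22. At 40 and above they were 8.48 against 7.14 for N-MYC and 8.80 against 8.21 for EZH2. From 20 to 30 the N-MYC median was again higher at the members, 6.83 against 5.89, but the other medians were lower: 4.44 against 4.89 for EZH2, 4.28 against 5.15 for p300 and 12.3 against 12.5 for H3K27ac.

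Among the gene families of protein synthesis that were read, the initiation factor genes had the lowest shares of N-MYC and p300. N-MYC was called at 95.1% of 81 cytosolic ribosomal protein genes, at 84.2% of 38 aminoacyl tRNA synthetase genes and at 80% of 15 genes with symbols that begin with Eef, most of which encode elongation factors, against 76.8% of the initiation factor genes. For p300 these shares were 96.3%, 92.1% and 93.3%, against 82.1%. EZH2 was called at 93.8%, 78.9% and 93.3%, on either side of the 87.5% of the initiation factor genes. The members' 95% intervals overlapped with those of the synthetase and Eef genes for all 3 lists, and with those of the ribosomal protein genes for EZH2 and p300 but not for N-MYC. The combination of 5 lists was found at 91.4% of the ribosomal protein and 65.8% of the synthetase genes, against 69.6%.

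N-MYC strength differed between the roles. The helicase group had the highest N-MYC median, 15.3 over the 5 of 6 genes with a peak (8.65 to 18.5). The eIF4G scaffolds followed with a median of 11.2 over 3 of 3 genes (10.7 to 12). The eIF2B exchange factor, which reloads eIF2 with GTP, had a median of 4.96 over 4 of 5 genes (4.44 to 5.97). The first 2 ranges did not overlap with that of eIF2B. For EZH2 the medians by role ran from 4.81 for eIF2B to 8.16 for the helicase group among groups with at least 3 genes called, and their ranges overlapped (4.25 to 6.63 and 6.33 to 11.4).

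**Figure D3:**
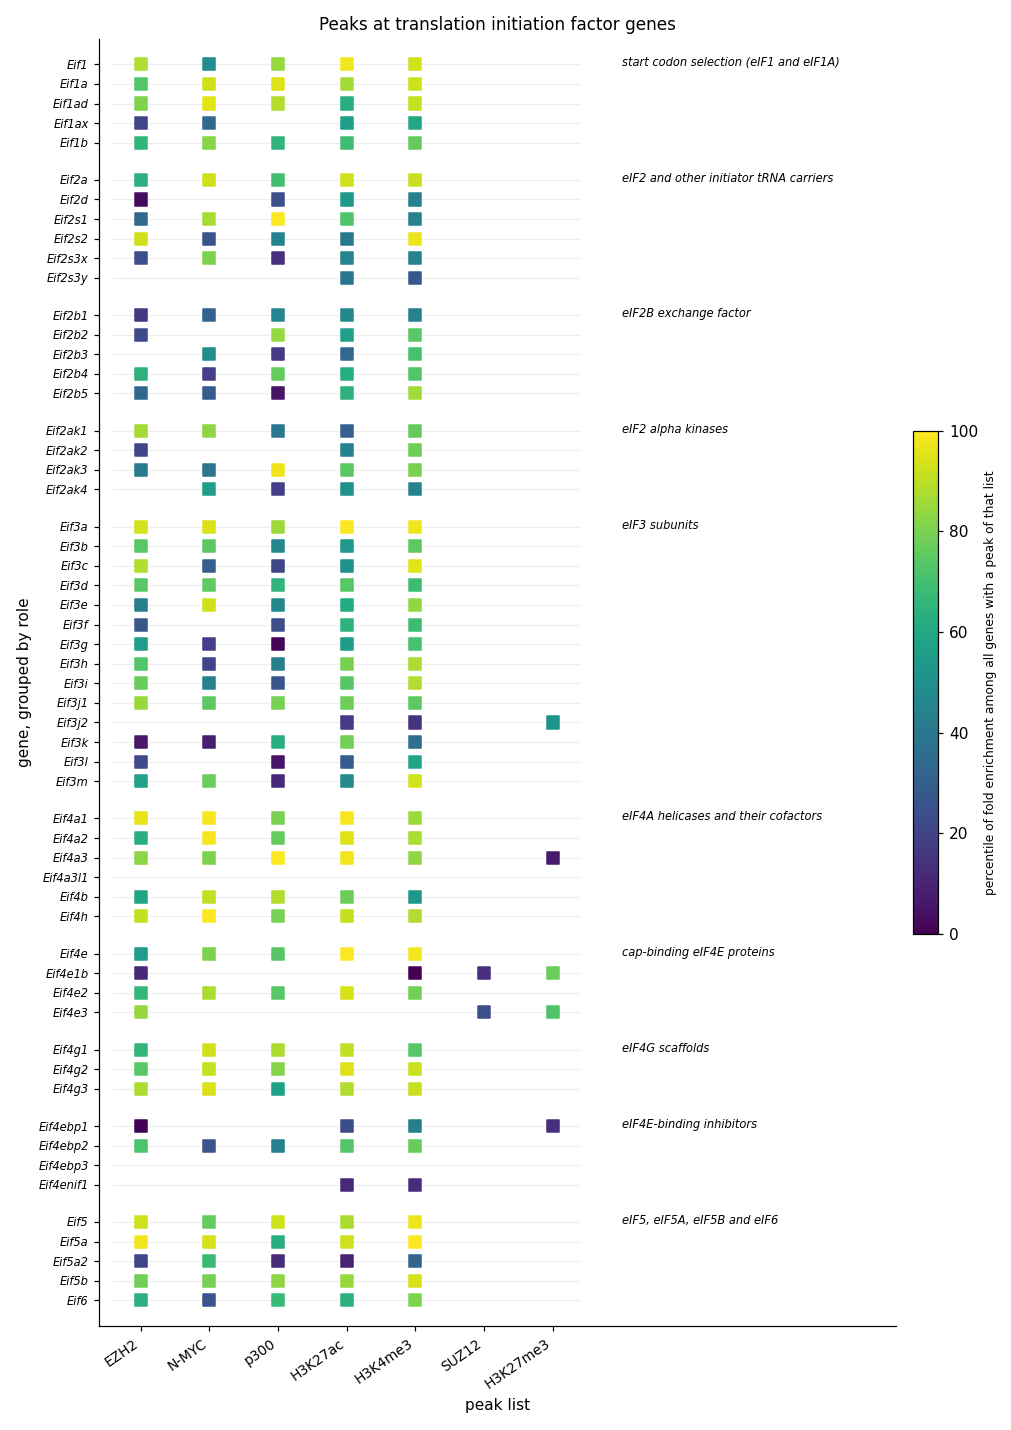
Peaks of the 56 initiation factor genes (y axis, grouped by role) in the 7 lists (x axis), each square coloured by the percentile of its fold enrichment among all protein-coding genes with a peak of that list. Blank places are genes with no call; the 5 lists at the left fill most of the rows, and SUZ12 and H3K27me3 hold 2 and 5 squares.

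Among the genes with symbols that begin with Eif1, grouped here under start codon selection, all 5 carried EZH2, N-MYC, H3K27ac and H3K4me3. Eif1, whose protein keeps the scanning ribosome from starting at wrong codons, had fold enrichments for EZH2 at 8.86, N-MYC at 5.88, p300 at 7.26, H3K27ac at 29.6 and H3K4me3 at 40.5. Its paralogue Eif1b had EZH2 at 6.73, N-MYC at 8.87, p300 at 6.02, H3K27ac at 16.1 and H3K4me3 at 34.3. N-MYC was thus higher at Eif1b and the other 4 lists were higher at Eif1. Eif1ax and Eif1a both encode eIF1A, which helps scanning and the joining of the ribosomal subunits. Eif1ax, on the X chromosome, had 4.44 for EZH2, 5.14 for N-MYC, 13.3 for H3K27ac and 29.3 for H3K4me3, and it was the only one of the 5 with no p300 peak. Eif1a had EZH2 at 7.22, N-MYC at 11.3, p300 at 8.87, H3K27ac at 20.8 and H3K4me3 at 40.4, on an H3K4me3 peak that also reached the start of Tmed7. Eif1ad, named for its eIF1A domain, had the fourth highest N-MYC value of the members, 12.5, with EZH2 at 7.90, p300 at 7.755, H3K27ac at 14.8 and H3K4me3 at 39.8, on a peak shared with the start of Banf1.

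The 3 subunits of eIF2, which carries the initiator tRNA, differed in which list was high. Eif2s1, the alpha subunit that stress kinases phosphorylate, had EZH2 at 5.03, N-MYC at 9.60, p300 at 11.4, H3K27ac at 16.9 and H3K4me3 at 24.6. Its p300 value reached or exceeded that of 99.3% of genes with p300, and its H3K4me3 peak also reached the start of Atp6v1d. Eif2s2, the beta subunit, had EZH2 at 9.79, N-MYC at 4.80, p300 at 5.11, H3K27ac at 10.61 and H3K4me3 at 43.5, so that its EZH2 and H3K4me3 values were among the 5 highest of the members and its N-MYC value lay below their lower quartile of 5.28. The gamma subunit has an X-linked and a Y-linked gene. Eif2s3x had EZH2 at 4.64, N-MYC at 8.59, p300 at 3.905, H3K27ac at 11.5 and H3K4me3 at 24.7. Eif2s3y had 10.4 for H3K27ac and 18.7 for H3K4me3 and no other peak. On the whole Y chromosome, N-MYC had 0 peaks, EZH2 and p300 had 3 each and H3K4me3 had 9, and the part of these low counts in the blanks at Eif2s3y was not tested. Eif2a and Eif2d encode other carriers of initiator tRNA. Eif2a had 11.3 for N-MYC and 6.60 for EZH2 on an H3K4me3 peak shared with the start of Serp1, whereas Eif2d had no N-MYC peak and 3.42 for EZH2, 4.28 for p300, 12.9 for H3K27ac and 24.4 for H3K4me3.

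All 5 eIF2B genes carried p300, H3K27ac and H3K4me3. Eif2b3 had no EZH2 peak, with N-MYC at 5.97, p300 at 4.03, H3K27ac at 9.33 and H3K4me3 at 32.6. Eif2b2 had no N-MYC peak, with EZH2 at 4.56, p300 at 7.26, H3K27ac at 13.5 and H3K4me3 at 33.7. The remaining genes, Eif2b1, Eif2b4 and Eif2b5, had N-MYC values of 5.02, 4.44 and 4.90, all under the median of 6.02 for all genes with an N-MYC peak. The 4 kinases that phosphorylate eIF2 alpha under stress each had H3K4me3 and H3K27ac. Eif2ak1, the kinase that senses haem shortage, had the highest EZH2 and N-MYC values of the 4, 8.604 and 9.002, with 4.92 for p300, 8.84 for H3K27ac and 34.3 for H3K4me3. Eif2ak3, the kinase of endoplasmic reticulum stress, had 9.87 for p300, the third highest of all members, with 5.43 for EZH2, 5.42 for N-MYC, 17.4 for H3K27ac and 35.4 for H3K4me3. Eif2ak4, which senses amino acid shortage, had N-MYC at 6.38, p300 at 4.11, H3K27ac at 12.3 and H3K4me3 at 24.7 and no EZH2 peak. Eif2ak2, which senses double-stranded RNA, had 4.44 for EZH2, 11.2 for H3K27ac and 34.8 for H3K4me3 and no N-MYC or p300 peak.

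The scaffold eIF3 has 14 genes here, and 13 carried EZH2, 11 N-MYC, 13 p300 and all 14 H3K27ac and H3K4me3. Eif3a, the largest subunit, had EZH2 at 9.99, N-MYC at 11.97, p300 at 7.38, H3K27ac at 35.2 and H3K4me3 at 43.7, the highest of the 14 in all 5 lists. Eif3b, a core subunit, had EZH2 at 7.32, N-MYC at 8, p300 at 5.17, H3K27ac at 13.01 and H3K4me3 at 33.97. Eif3c, another core subunit, had EZH2 at 8.80, N-MYC at 4.96, p300 at 4.15, H3K27ac at 12.43 and H3K4me3 at 42.1. N-MYC at Eif3c was thus lower than at Eif3a and Eif3b while its H3K4me3 was the second highest of the eIF3 genes. Without N-MYC, Eif3f had EZH2 at 4.78, p300 at 4.28, H3K27ac at 15.1 and H3K4me3 at 32.0, and Eif3l had EZH2 at 4.56, p300 at 3.52, H3K27ac at 8.52 and H3K4me3 at 29.1. At Eif3k the EZH2 and N-MYC peaks, with 3.69 and 3.896, lay outside the start window on an H3K4me3 peak that also reached the start of Map4k1. Its N-MYC value was the weakest of the members. Eif3j1 and Eif3j2 both encode the loosely bound j subunit. Eif3j1 had all 5 lists, with EZH2 at 8.36, N-MYC at 8.03, p300 at 6.885, H3K27ac at 18.2 and H3K4me3 at 33.97. Eif3j2 had 6.26 for H3K27ac, 12.1 for H3K4me3 and 9.54 for H3K27me3. It had no start in the promoter table and was read at either gene end, and the start of Gm3650 lay within 1 kb. The other eIF3 genes, Eif3d, Eif3e, Eif3g, Eif3h, Eif3i and Eif3m, had all 5 lists, with N-MYC values from 4.44 at Eif3g to 11.2 at Eif3e.

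In the helicase group, Eif4h, Eif4a1 and Eif4a2 had the 3 highest N-MYC values of the members. Eif4h had EZH2 at 9.45, N-MYC at 18.5, p300 at 6.89, H3K27ac at 23.0 and H3K4me3 at 38.5, and its N-MYC value reached or exceeded that of 99.8% of genes with N-MYC. Its N-MYC peak covered chr5:134638981-134639912 and its EZH2 peak chr5:134638391-134639393. Eif4a1 had EZH2 at 11.4, N-MYC at 15.9, p300 at 6.997, H3K27ac at 30.5 and H3K4me3 at 37.1, with N-MYC at chr11:69672107-69673063 and EZH2 at chr11:69671370-69672397. Eif4a2 had EZH2 at 6.58, N-MYC at 15.3, p300 at 6.66, H3K27ac at 25.9 and H3K4me3 at 38.2. N-MYC was close at both helicase genes, while EZH2 was 11.4 at Eif4a1 and 6.58 at Eif4a2. Eif4b, whose protein stimulates the helicase, had 10.5 for N-MYC and 6.33 for EZH2. Eif4a3 had the highest p300 value of the members, 12.43, with 8.16 for EZH2, 8.65 for N-MYC, 28.8 for H3K27ac and 36.5 for H3K4me3. It also had a weak H3K27me3 peak of 216 bp and 3.80 at chr11:119300737-119300952, at the upstream edge of its H3K4me3 peak, and a stronger one in the start window, with 5.89, lay outside the H3K4me3 peak.

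Of the 4 cap-binding genes, 2 carried all 5 of EZH2, N-MYC, p300, H3K27ac and H3K4me3. In the regions read for the other 2, SUZ12 and H3K27me3 were called. Eif4e, whose protein binds the cap, had EZH2 at 6.10, N-MYC at 8.59, p300 at 6.51, H3K27ac at 33.8 and H3K4me3 at 44.4. Eif4e2, whose protein binds the cap but not eIF4G and represses translation, had EZH2 at 6.79, N-MYC at 9.69, p300 at 6.51, H3K27ac at 24.6 and H3K4me3 at 35. Eif4e3 had 8.38 for EZH2, 4.30 for SUZ12 and 12.96 for H3K27me3, and it had no active mark. The H3K27me3 peak of Eif4e3 spanned 12423 bp at chr6:99686579-99699001, and the start of Gpr27 lay within 1 kb of the gene end that was read. Eif4e1b, known from oocytes, had 4.04 for EZH2, 3.84 for SUZ12, 13.9 for H3K27me3 and 3.23 for H3K4me3, the weakest H3K4me3 value of the members. That H3K4me3 peak, chr13:54789290-54789911, lay beyond the gene end of Eif4e1b and reached the start of Tspan17. The EZH2 peak was called on it alone, outside the start window of Eif4e1b. No start of Eif4e3 or Eif4e1b was in the promoter table, so both were read at either gene end. The SUZ12 and H3K27me3 peaks therefore cannot be placed at the starts of these genes. Among the scaffolds that join the cap to the ribosome, Eif4g1 had EZH2 at 6.73, N-MYC at 11.2, p300 at 7.63, H3K27ac at 22.5 and H3K4me3 at 33.4. Eif4g3 had EZH2 at 8.78, N-MYC at 12, p300 at 5.64, H3K27ac at 21.6 and H3K4me3 at 39.98. Eif4g2, whose protein lacks the eIF4E-binding region, had EZH2 at 7.33, N-MYC at 10.7, p300 at 7.12, H3K27ac at 25.2 and H3K4me3 at 40.2, so N-MYC at the 3 scaffolds lay between 10.7 and 12.

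The inhibitors that bind eIF4E had the lowest share of N-MYC and p300 calls of the groups, 1 of 4 genes for each. All genes had 33.6% for N-MYC and 39.7% for p300, and 4 genes are too few to set apart from these shares. Eif4ebp1 and Eif4ebp3 had no start in the promoter table and were read at either gene end. Eif4ebp2 had all 5 lists, with EZH2 at 7.17, N-MYC at 4.79, p300 at 5.045, H3K27ac at 17.05 and H3K4me3 at 34.4. Eif4ebp1 had the weakest EZH2 peak of the members, 2.83 over 223 bp at chr8:27260238-27260460, with 7.53 for H3K27ac and 24.2 for H3K4me3 and no N-MYC or p300 peak. A 1617 bp H3K27me3 peak with 4.37 touched the edge of its H3K4me3 peak. Eif4ebp3 had no peak in any list. Eif4enif1, whose protein carries eIF4E into the nucleus, had 5.10 for H3K27ac and 10.7 for H3K4me3 alone, on H3K4me3 shared with the starts of Gm51877 and Sfi1.

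The late factors all carried the 5 lists. Eif5a, whose hypusine-bearing protein also acts in elongation and termination, had the highest EZH2 and H3K4me3 values of the members, 13.6 and 48.9, with 11.6 for N-MYC, 5.98 for p300 and 23.9 for H3K27ac. Its EZH2 value reached or exceeded that of 98.2% of genes with EZH2. Its paralogue Eif5a2 had EZH2 at 4.44, N-MYC at 7.29, p300 at 3.88, H3K27ac at 4.76 and H3K4me3 at 20.8, lower in every list. In the start window of Eif5a2 an H3K27me3 peak with 2.46 lay outside the H3K4me3 peak. Eif5, which triggers GTP hydrolysis on eIF2, had EZH2 at 9.79, N-MYC at 8.13, p300 at 8.39, H3K27ac at 21.3 and H3K4me3 at 43.9. Eif5b, which joins the subunits, had EZH2 at 7.69, N-MYC at 8.48, p300 at 7.13, H3K27ac at 20.1 and H3K4me3 at 41.2 on H3K4me3 shared with the start of Txndc9. Eif6, which keeps the large subunit from joining too early, had EZH2 at 6.62, N-MYC at 4.76, p300 at 6.14, H3K27ac at 14.9 and H3K4me3 at 35.7, the lowest N-MYC value of these 5 genes. It had no start in the promoter table and was read at either gene end, over 2 H3K4me3 peaks. The values of Eif6 can therefore come from different ends of the gene, and the start of BC029722 lay within 1 kb of an end.

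Across the members the rank correlation with H3K4me3 was larger for EZH2 than for N-MYC. Spearman's rho between the H3K4me3 and EZH2 fold enrichments was 0.73 over 48 members and 0.46 over 8332 genes. Between H3K4me3 and N-MYC it was 0.32 over 43 members and 0.19 over 7302 genes. Between EZH2 and N-MYC it was 0.35 over 41 members and 0.19 over 6147 genes. Between p300 and H3K27ac it was 0.66 over 46 members and 0.33 over 8564 genes. These are descriptions across genes read in the same libraries, whose promoters differ in GC content, and genes are not replicates.

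**Figure D4:**
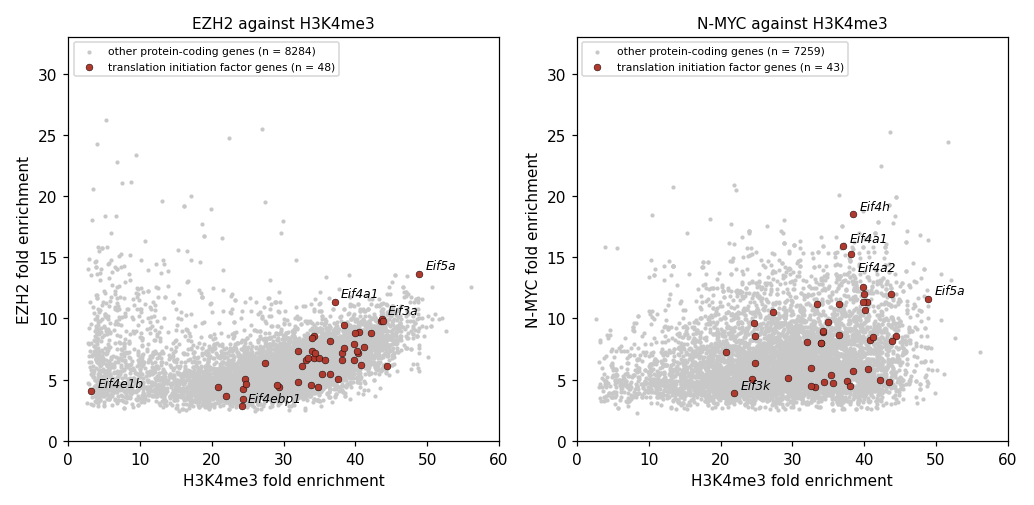
Fold enrichment of EZH2 (left) and N-MYC (right) against that of H3K4me3, each point being a gene, with initiation factor genes in red and other protein-coding genes in grey. EZH2 at the members rises with H3K4me3 up to Eif5a at 48.9 and 13.6, while the N-MYC values of Eif4h, Eif4a1 and Eif4a2 stand at 15.3 to 18.5 with H3K4me3 under 40.

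The positions of the summits differed between the lists. For members with a listed start and strand, the EZH2 summit lay at a median of 323.5 bp downstream of the start. It was downstream at 34 of 40 (85%), against 79.8% of all genes with EZH2 read the same way. H3K4me3 summits lay at a median of 329 bp, with 40 of 43 (93.0%) downstream, against 83.1% of all genes with H3K4me3. N-MYC summits had a median of -10.5 bp, and 21 of 36 (58.3%) lay within 100 bp of the start, against 39.8% of all genes with N-MYC. The p300 summits had a median of -35 bp and the H3K27ac summits 241 bp. All genes gave 252 bp for EZH2, -5 bp for N-MYC and 270 bp for H3K4me3, so the order was that of genes in general. Of 41 members with both EZH2 and N-MYC, the peaks overlapped in 39, with the summits a median of 388 bp apart, against 328 bp for all genes. The overlap was not counted over all genes, so the 39 of 41 describes the members only. EZH2 and H3K4me3 summits were a median of 103.5 bp apart, against 114 bp. The N-MYC summit was the nearer to the start in 30 of 35 members, against 76.2% of 5049 genes.

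**Figure D5:**
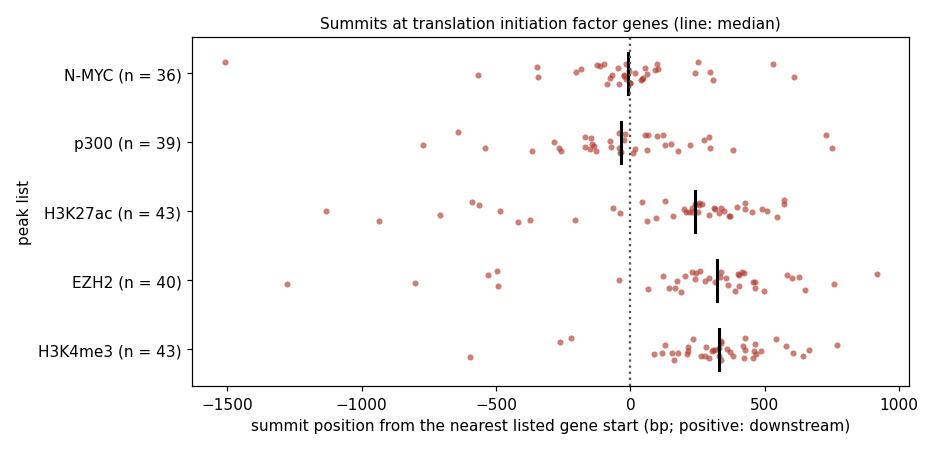
Summit of the strongest peak of each list relative to the nearest listed start (x axis, bp along transcription), each point being an initiation factor gene and each black line the median. N-MYC and p300 medians lie at -10.5 and -35 bp, and those of H3K27ac, EZH2 and H3K4me3 at 241, 323.5 and 329 bp.

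Promoter sequence was read for 44 members in a window from 250 bases upstream to 50 bases downstream of each listed start. CACGTG, which reads the same on both strands, was present at 10 genes (22.7%, interval 12.8 to 37.0%), against 8.91% of 17492 genes and 12.2% of those with H3K4me3. Counted by promoter it was in 21.1% of 57, against 7.84% of 21263. CACGCG, on either strand, was at 20.5%, against 13.7% of all genes and 21.6% of those with H3K4me3. CATGTG, on either strand, was at 13.6% of members, against 13.2% of all genes and 9.97% of those with H3K4me3. Of sites for other factors, TTCCGG on either strand was at 50%, against 20.9% of all genes and 34.1% of those with H3K4me3, and GGGCGG on either strand at 75%, against 49.2% and 71.5%. TATAAA on the coding strand was at 3 members (6.82%), below the 9.82% of all genes and above the 4.89% of those with H3K4me3. CTTTCC on the coding strand was at 13.6%, against 15.9% and 17.03%. Median GC content was 62% at the members, 56.3% over all promoters and 61.3% over those with H3K4me3.

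Of the 14 CACGTG sites at the members, 13 were at genes with an N-MYC peak. Of these, 12 (92.3%) were inside it, against 82.1% of such sites over all genes. The median distance from site to N-MYC summit was 46 bp, against 108 bp over 1013 sites of all genes, and 7 of 13 (53.8%) lay within 50 bp, against 26.9%. Members with a CACGTG had a median N-MYC value of 11.2 over 9 of 10 genes, and those with H3K4me3 and no CACGTG had 8.04 over 27 of 33. Over all genes these medians were 6.54 and 5.98. N-MYC was called at 78.4% of all genes with H3K4me3 and a CACGTG and at 64.1% of those without one. Members had 90% and 81.8%. The exceptions shown above, Eif3f with a site and no N-MYC peak and Eif4a2 with 15.3 and no CACGTG in its window, belong to the same counts.

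Other genes of the same pathway, 32 in all, also carried mostly the 5 lists. They include poly(A)-binding proteins and their partners, the nuclear cap-binding complex, kinases of eIF4E, helicases that help scanning, ribosome recycling and reinitiation factors, the mTOR pathway, the integrated stress response and the enzymes that make hypusine. All 32 carried H3K4me3 and H3K27ac, 29 EZH2, 27 N-MYC and 30 p300, and 0 carried SUZ12 or H3K27me3. Their shares were 90.6% for EZH2, 84.4% for N-MYC and 93.8% for p300, where all genes had 46.2%, 33.6% and 39.7%, and all genes with H3K4me3 had 74.7%, 65.5% and 77.3%. Those with no EZH2 peak were Tsc2, Mcts1 and Impact, and Paip2 and Ppp1r15a had EZH2 but no N-MYC. Ppp1r15b, a regulator of eIF2 alpha phosphatase, had the highest N-MYC value of the list, 16.04, with 8.96 for EZH2. Larp1, which controls mRNAs of ribosomal proteins, had the highest EZH2 value, 11.7, with 13.1 for N-MYC.

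The start of another protein-coding gene lay within 1 kb at 16 of the 56 members (28.6%), against 12.4% of all genes, so at these genes a peak cannot be assigned to 1 of the neighbours. Without these 16, the combination of 5 lists was found at 29 of 40 members. SUZ12 was then called at 0 of 40 genes and H3K27me3 at 2. No share of all genes is given for that setting. Of the 5 members with H3K27me3, 4 had no listed start. With the 44 members that have one, H3K27me3 was called at 1 and SUZ12 at 0. Of all 17492 genes with a listed start, 23.5% had H3K27me3 and 12.5% had SUZ12.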

How the data were processed

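ChIPmentation libraries of MYCN-driven lymphoma thymus were read through their peak lists, 1 per antibody, with 7 antibodies. FastQC, Bowtie2, SAMtools, MACS2 and deepTools and the builds mm10 and GRCm38 are named in the submitters' processing notes, with no role, order or version. Use of the inputs as controls, pooling and filters are not given in the sources used here. Peak strength is the deposited fold enrichment over background, a ratio that was used unchanged. The deposited −log10 p and −log10 q values were identified from the column layout, and the lowest −log10 q of a list lay between 2.00 and 2.08. A further deposited score enters no result, and other deposited columns give a peak's start, end and summit. Lists hold only called sites, so a missing peak means no call. Read numbers are not given in the sources used here, so depth is unknown.

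Genes, starts and promoter sequences were from RefSeq (GRCm38.p6), and 13 mitochondrial genes were left out. Every start in the promoter table was used for 44 members (17492 genes), and the 12 members (4395 genes) with no entry were read at either gene end, with no strand. A peak was counted from an overlap of 1 bp. Scripts used Python 3.11.15, NumPy 2.4.6, pandas 2.3.3 and SciPy 1.17.1, and the reading was tested on simulated data with planted peaks. Intervals cover counting error only. Members, roles and gene lists were chosen with earlier results of these data known. Values in full are given for core subunits, for the 5 highest members of each active list, for members with SUZ12 or H3K27me3 or without an active list, and for paralogues. Alternatives changed the window, the overlap rule, the peak threshold, the list length, the gene position and the members.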

Additional observations from a re-analysis of the deposited data

How the results depend on the processing

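Of 133 alternative values for 14 counts, 118 stayed within 1.5 times the reported count, and all those for EZH2, N-MYC, p300, H3K27ac, H3K4me3 and the combination of 5 lists did. The other 15 concern SUZ12 and H3K27me3, which rest on 2 to 6 genes. Counts near 56 cannot rise by 1.5 times. With lists of equal length, EZH2 fell from 49 to 38 genes on the H3K4me3 peak and from 47 to 38 in the start window. In the start window p300 then fell from 46 to 39 and H3K27ac from 52 to 46. N-MYC is the shortest list, so that setting left it at 42 there by construction. No share of all genes is given for lists of equal length, so counts in that setting have no comparison. SUZ12, called at 2 genes in the start window and on the H3K4me3 peak, was called at 1 with 500 bp either side and at 1 with a fold enrichment of at least 4, in both readings, and at 1 in the start window when the summit had to lie within 1 kb. Without genes near another start, and with only genes that have a start in the promoter table (an alternative added after seeing the data), it was called at 0 in both readings. H3K27me3 in the start window fell from 6 to 3 genes with lists of equal length, to 3 without genes near another start (7.5% of the 40 genes read, against 10.7% of 56) and to 2 with promoter-table genes. On the H3K4me3 peak it fell from 5 to 3 with lists of equal length, to 2 without genes near another start and to 1 with promoter-table genes. In those last 2 settings fewer genes were read (40 and 44). Of all 17492 genes with a promoter-table start, 24.3% had H3K27me3 in the start window and 23.5% on the H3K4me3 peak. For SUZ12 these shares were 12.8% and 12.5%. A further alternative added after seeing the data, the outermost start alone, changed none of the 14 counts by over 1.5 times. No paired analysis was possible because each antibody has 1 library. Depth is unknown, so a missing call can be a site under the threshold.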
